A study of Rattus norvegicus with 6 samples.

Results

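Cells that make and fold large amounts of secreted and membrane protein carry sensors for unfolded protein in the endoplasmic reticulum (ER), and the genes of that machinery were compared between Schwann cell precursors (SCPs) and repair Schwann cells (RSCs) of the rat. The 10 genes are Ern1, Eif2ak3 and Atf6, which encode the ER sensors IRE1, PERK and ATF6, Atf4, Xbp1 and Ddit3, which encode transcription factors downstream of them, and the target genes Trib3, Chac1, Asns and Herpud1. They were taken by symbol from the deposited tables, which hold 29468 symbols, and all 10 were among the 13003 genes tested, those averaging 1 FPKM or more over all samples (FPKM counts fragments relative to transcript length and to all mapped fragments of the sample). Ddit3 passed this filter through its RSC values alone. Atf6, with an SCP mean of 0.801 FPKM by named transcripts, passed it through RSC preparation 3 and was not called by that count. By named transcripts 6 of the 10 genes were higher in RSCs, none was higher in SCPs and 4 were not called. Of all tested genes, 18.1% were called higher in RSCs and 22.4% higher in SCPs. Without Ddit3, 5 of the other 9 were higher in RSCs.

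RNA was sequenced from 3 preparations of each cell type, all from LEWIS rats recorded as wild type. SCPs, the embryonic cells from which Schwann cells arise, came untreated from the sciatic nerves and brachial plexus of embryos at embryonic day 14. RSCs, the state that Schwann cells adopt after nerve injury, came from the sciatic nerve of rats 10 weeks old, distal to a cut made 1 week before. Both were dissociated with collagenase and trypsin, the RSCs for longer and with more collagenase, and the cells that did not stick to uncoated plastic in a short plating were kept. Nothing in the labels says how many animals or embryos went into a preparation.

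In the unfolded protein response, IRE1 cuts a short piece out of the Xbp1 message so that an active factor is made, PERK phosphorylates the initiation factor eIF2 so that most translation slows while Atf4 is translated more, and ATF6 is cleaved to release a transcription factor. Other kinases that sense missing amino acids, double-stranded RNA or heme also phosphorylate eIF2, and the shared output through ATF4 is called the integrated stress response. Schwann cells are secretory and membrane-building cells that are known to use this response. Much of this control acts on translation, phosphorylation and cleavage of proteins, which RNA levels do not measure.

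The promoters of 4 of the genes are shown because they hold the published recognition sequences of the factors named above. Promoters of 8 of the 10 genes were found in RefSeq tables of the rat assembly GRCr8, and those of Ern1 and Atf6 were not used here. The windows searched ran from 250 bases before the annotated start to 50 after it, on both strands, and the lines give the 250 bases before the start, 5′ to 3′ in the direction of the gene, with the matches in capitals.
Herpud1 promoter, chr19:10614708-10614957, minus strand: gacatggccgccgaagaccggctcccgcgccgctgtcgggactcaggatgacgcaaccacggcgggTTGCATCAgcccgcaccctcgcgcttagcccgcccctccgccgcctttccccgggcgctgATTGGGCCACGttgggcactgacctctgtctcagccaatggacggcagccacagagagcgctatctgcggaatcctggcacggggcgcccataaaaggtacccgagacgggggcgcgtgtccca
Xbp1 promoter, chr14:84604373-84604622, plus strand: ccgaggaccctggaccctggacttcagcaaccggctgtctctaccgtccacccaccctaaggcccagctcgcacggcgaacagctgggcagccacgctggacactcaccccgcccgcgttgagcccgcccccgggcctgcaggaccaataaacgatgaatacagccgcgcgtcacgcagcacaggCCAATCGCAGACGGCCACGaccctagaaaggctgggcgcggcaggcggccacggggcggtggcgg
Chac1 promoter, chr3:126795881-126796130, plus strand: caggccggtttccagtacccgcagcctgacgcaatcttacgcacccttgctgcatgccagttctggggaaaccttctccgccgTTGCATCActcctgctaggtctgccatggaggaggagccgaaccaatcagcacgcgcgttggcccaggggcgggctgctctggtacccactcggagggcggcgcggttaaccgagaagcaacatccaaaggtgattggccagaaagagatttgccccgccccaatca
Trib3 promoter, chr3:161275534-161275783, minus strand: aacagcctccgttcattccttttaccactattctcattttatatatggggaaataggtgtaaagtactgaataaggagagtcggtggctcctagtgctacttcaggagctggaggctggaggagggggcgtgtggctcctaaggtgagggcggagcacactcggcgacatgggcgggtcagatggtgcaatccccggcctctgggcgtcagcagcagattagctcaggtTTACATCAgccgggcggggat
The element bound by ATF4 with C/EBP partners, searched as TGATGNAA, lies on the opposite strand in Herpud1 (TTGCATCA), Chac1 (TTGCATCA) and Trib3 (TTACATCA), beginning 184, 167 and 21 bases before the start. It was present in 3.98% of the 33469 rat promoters of the same length. The ER stress element, searched as CCAAT and CCACG with 9 bases of any kind between them, was found in Xbp1 alone of the 8, beginning 65 bases before the start, and 22 of all promoters (0.0657%) hold it. The second ER stress element, searched as ATTGG and CCACG with 1 base of any kind between them, was found in Herpud1 alone, 124 bases before the start, and 17 of all promoters (0.0508%) hold it. The matches did not overlap each other. The XBP1 element TGACGTGG (0.595% of promoters) and the cyclic AMP element TGACGTCA (1.83%) were not present in the 8 windows, nor were any of the 5 sequences in those of Eif2ak3, Atf4, Ddit3 and Asns. Only exact letters were counted, so an element that differs at a single base was missed, and a window without a match can still hold such an element. A match of letters is a description and not a bound site.

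Atf4, the shared effector of the eIF2 kinases, lies on chromosome 7 of rn6 from 121480723 to 121482781 and was by far the most abundant of the 10. Its FPKM was 195, 234 and 197 in SCPs 1 to 3 and 280, 275 and 295 in RSCs 1 to 3. Each RSC preparation was above each SCP preparation. The RSC mean was 1.36 times the SCP mean, a log2 fold change of 0.44 ± 0.089 (SE) on log2(FPKM + 1), with a limma p of 0.00273 and an adjusted p of 0.00894. A call was an unadjusted p under 0.01, which 18.1% of all tested genes passed with higher values in RSCs and 22.4% with higher values in SCPs. The call of Atf4 was the least firm of the 6, since it was lost in 6 of 17 alternatives, where its unadjusted p was above 0.01. In 3 of these a preparation was left out, RSC 1 (adjusted p = 0.0289), RSC 3 (adjusted p = 0.0333) or SCP 3 (adjusted p = 0.0283), and the log2 fold change stayed between 0.40 and 0.45. The genes whose log2 levels followed Atf4 most closely over the 6 samples were Tapbp (Pearson r = 0.999), Agt (0.997) and Parp4 (0.996), which share the split between the groups with it.

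Among the ER sensors, Eif2ak3 differed clearly and the other two depended on how transcripts were counted. Eif2ak3, the gene of PERK, lies on chromosome 4 from 98648507 to 98709695. Its FPKM was 5.66, 5.54 and 6.45 in SCPs and 11.3, 12.7 and 11.8 in RSCs. The groups were far apart and the RSC mean was 2.03 times the SCP mean, a log2 fold change of 0.91 ± 0.14 (adjusted p = 0.0029).

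Ern1, the gene of IRE1, lies on chromosome 10 from 94588555 to 94681985. By its 3 named transcripts it had 2.91, 4.66 and 1.52 FPKM in SCPs and 6.87, 0 and 3.66 in RSCs, so that the groups overlapped and no difference was called (log2 fold change -0.20 ± 0.81, adjusted p = 0.86). Atf6 lies on chromosome 13 from 89053457 to 89242528, and by its 2 named transcripts it had 2.40 FPKM in SCP preparation 1, 8.99 in RSC preparation 3 and was listed at 0 in the other 4 samples. Its log2 fold change of 0.52 ± 1.05 was not called (adjusted p = 0.72).

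These uneven values go with the form of the tables. Besides the named reference transcripts, each table lists transcripts without a gene name that Cufflinks assembled from that sample alone, and where such a transcript lies on a gene the named transcript can be listed at 0. With unnamed transcripts of the same Cufflinks locus added, the Ern1 values became 5.73, 5.97 and 5.97 FPKM in SCPs and 6.87, 7.40 and 7.03 in RSCs. Those of Atf6 became 7.71, 7.48 and 6.69 in SCPs and 13.8, 14.4 and 14.8 in RSCs. The 3 preparations of each group then lay close together and the groups were apart for both genes. Atf6 was called, at 1.96 times the SCP mean (log2 fold change 0.89 ± 0.11, adjusted p = 0.00043). Ern1 was not, at 1.21 times the SCP mean (0.23 ± 0.11, adjusted p = 0.10). Counted this way, PERK and ATF6 transcripts were each about as far above the SCP level, with log2 fold changes of 0.91 and 0.89, and that of IRE1 was smaller, a difference between genes that was not tested.

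**Figure D1:**
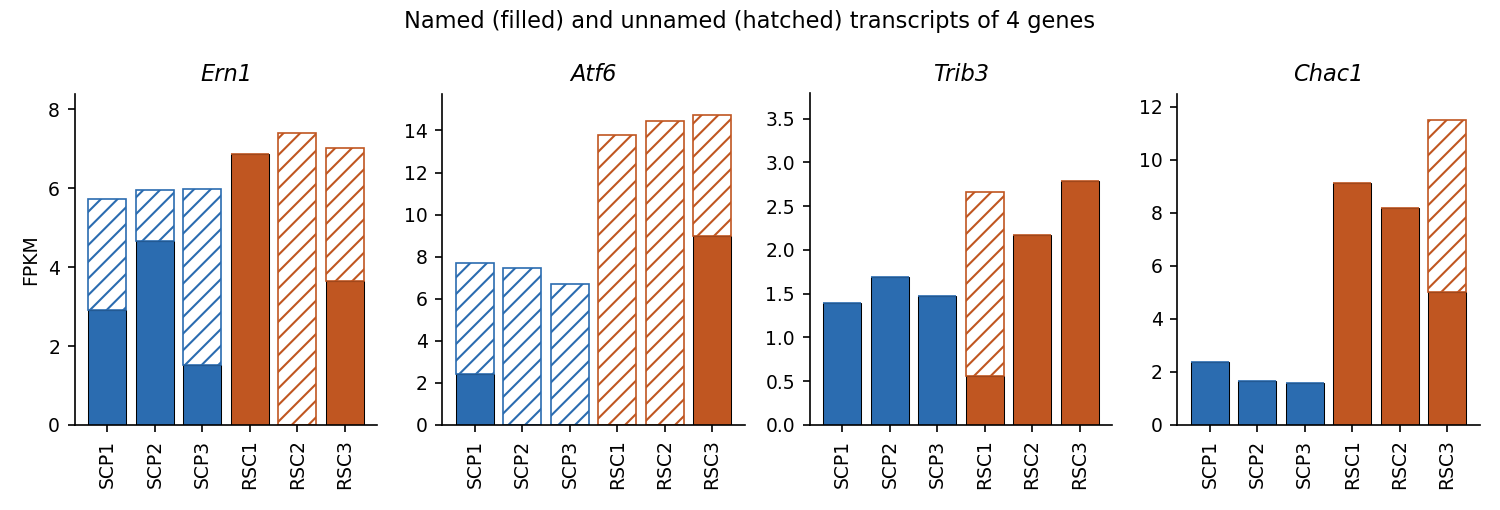
FPKM of Ern1, Atf6, Trib3 and Chac1 in each of the 3 SCP (blue) and 3 RSC (orange) preparations, with named transcripts filled and unnamed transcripts of the same locus hatched on top. The total bars of Ern1 and Atf6 are close to each other within a group, whereas the filled part of Atf6 is present in 2 samples only and that of Ern1 is absent from RSC2.

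Xbp1, the factor activated by IRE1, lies on chromosome 14 from 85753736 to 85758820. Its FPKM was 20.0, 25.5 and 30.2 in SCPs and 50.4, 43.7 and 50.8 in RSCs. All RSC values were above all SCP values. The RSC mean was 1.91 times the SCP mean (log2 fold change 0.92 ± 0.17, adjusted p = 0.0057), and 1.76 times with unnamed transcripts added (0.81 ± 0.15).

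The tables list 2 named Xbp1 transcripts with the same start and end, of 1841 and 1815 bases. They differ in length by 26 bases, the length of the piece that IRE1 removes, but the tables give lengths and not sequences, and do not label either as the cut form. The longer transcript had 20.0, 25.5 and 23.0 FPKM in SCPs and 15.9, 0 and 15.1 in RSCs. The shorter had 0, 0 and 7.25 FPKM in SCPs and 34.5, 43.7 and 35.8 in RSCs. By these estimates the higher Xbp1 level of RSCs lay in the shorter transcript, while the longer was lower in every RSC preparation than in any SCP preparation.

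The shorter transcript made up 0%, 0% and 24.0% of the named Xbp1 FPKM in SCPs and 68.4%, 100% and 70.3% in RSCs. The means were 7.99% ± 13.8 and 79.6% ± 17.7 (SD, n = 3), a difference of 71.6 percentage points with a two-sided exact permutation p of 0.1, the smallest that 3 against 3 can give. With the unnamed Xbp1 transcripts in the denominator the shares were 0%, 0% and 19.6% in SCPs and 58.6%, 79.4% and 70.3% in RSCs. Reads that span the 26 bases are the only ones that tell the named forms apart, their number is unknown, and a 0 for either form can be an estimate that failed. The 95% interval that Cufflinks gave for the shorter form was 4.93 to 9.64 FPKM in SCP preparation 3 and 29.4 to 39.6 in RSC preparation 1, which had the lowest RSC value. Such an interval covers the estimate within a sample only, and for Atf4 it did not hold the FPKM itself in 5 of 6 samples.

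**Figure D2:**
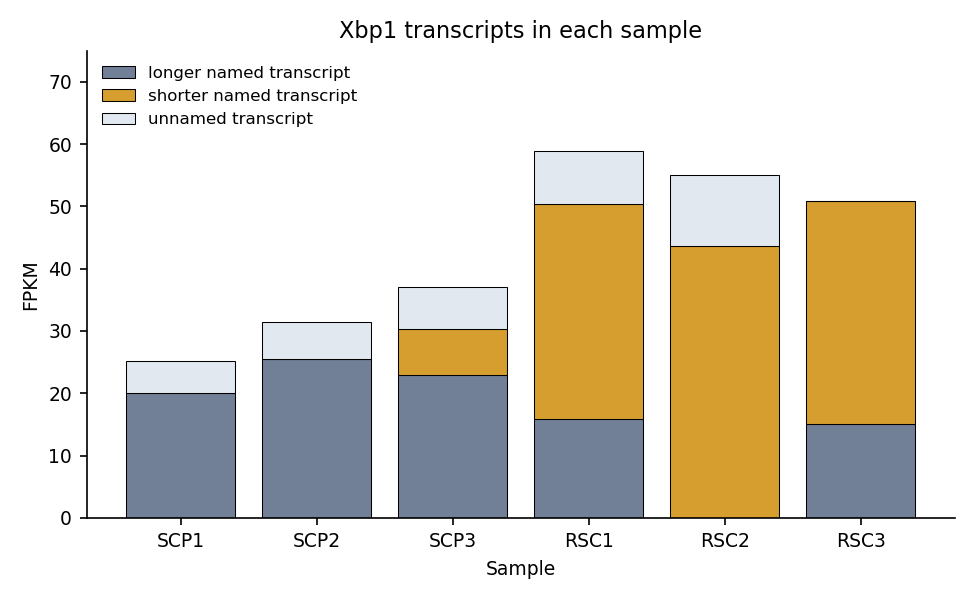
FPKM of the Xbp1 transcripts in each preparation, stacked as the longer named transcript (grey), the shorter named transcript (gold) and unnamed transcripts (pale). The gold part is 7.25 FPKM or less in SCPs and 34.5 to 43.7 FPKM in RSCs.

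Ddit3, the gene of the pro-apoptotic factor CHOP, lies on chromosome 7 from 70578545 to 70585074 and was the only one of the 10 listed at 0 throughout a group. It was listed at 0 in all 3 SCP preparations and at 32.3, 27.1 and 33.1 FPKM in RSCs, all of it on 1 of its 4 named transcripts, which is 861 bases long. Its level in RSCs was below those of Atf4 and Xbp1 and above that of Herpud1. The groups did not overlap, and the fit called Ddit3 higher in RSCs, but the size of its log2 fold change follows from the constant added before taking logarithms, 4.99 with 1 and 8.27 with 0.1. The SCP values of 0 add no spread, so its error comes from the RSC values and from spread that limma shares across genes. No ratio is given against a group listed at 0.

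That 0 should be read with care. The upper ends of Cufflinks's intervals for the 4 Ddit3 transcripts in SCPs ran from 0.169 to 0.521 FPKM, but such intervals are not a safe bound here, as the values of Atf4 show. Unnamed transcripts that Cufflinks placed in another locus lay across Ddit3 in SCP preparation 2 (3.84 FPKM) and in RSC preparation 3 (5.55 FPKM), and were not counted. Of all tested genes, 145 were listed at 0 in every SCP and above 0 in every RSC preparation, and 29 of these were above 0 in SCPs once unnamed transcripts were added. Bax, a widely expressed cell death gene, was listed at 0 in all SCPs and RSC preparation 3 and at 97.5 and 89.6 FPKM in RSC preparations 1 and 2. No unnamed transcript of the same Cufflinks locus accounted for it, and unnamed transcripts of other loci were not searched for Bax.

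Of the target genes, Herpud1, which helps clear unfolded protein from the ER and whose promoter holds both an ATF4 element and the second ER stress element, had the most even values. It lies on chromosome 19 from 11046903 to 11057570, with 10.3, 11.5 and 10.8 FPKM in SCPs and 24.8, 23.3 and 22.6 in RSCs. The groups were wide apart, at 2.16 times the SCP mean (log2 fold change 1.05 ± 0.11, adjusted p = 0.00066). Chac1, a glutathione-degrading enzyme and target of ATF4, lies on chromosome 3 from 111160205 to 111163425. It had 2.39, 1.64 and 1.59 FPKM in SCPs and 9.13, 8.20 and 4.996 in RSCs, a mean 3.98 times higher (1.53 ± 0.27, adjusted p = 0.0052). Every RSC value was above every SCP value, and with unnamed transcripts the value of RSC preparation 3 rose to 11.5 and the ratio to 5.14.

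The other target genes of ATF4 were not called. Trib3, a pseudokinase that restrains ATF4 and CHOP signalling, lies on chromosome 3 from 147814056 to 147819650, with 1.40, 1.69 and 1.47 FPKM in SCPs and 0.562, 2.16 and 2.79 in RSCs (log2 fold change 0.08 ± 0.38, adjusted p = 0.89). RSC preparation 1 was the lowest of the 6 samples and the other RSC preparations the highest. With unnamed transcripts added that sample had 2.66 FPKM, the groups lay apart, and the log2 fold change was 0.49 ± 0.15, whose unadjusted p missed the threshold (adjusted p = 0.029).

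Asns, asparagine synthetase, lies on chromosome 4 from 33742876 to 33761100. It had 6.21, 4.49 and 4.48 FPKM in SCPs and 6.89, 8.06 and 6.44 in RSCs. The groups did not overlap, but SCP preparation 1 lay near the RSCs, and the log2 fold change of 0.43 ± 0.19 was not called (adjusted p = 0.11). Asns and Atf4 had nearly the same log2 fold change, and differed in the spread between preparations.

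**Figure D3:**
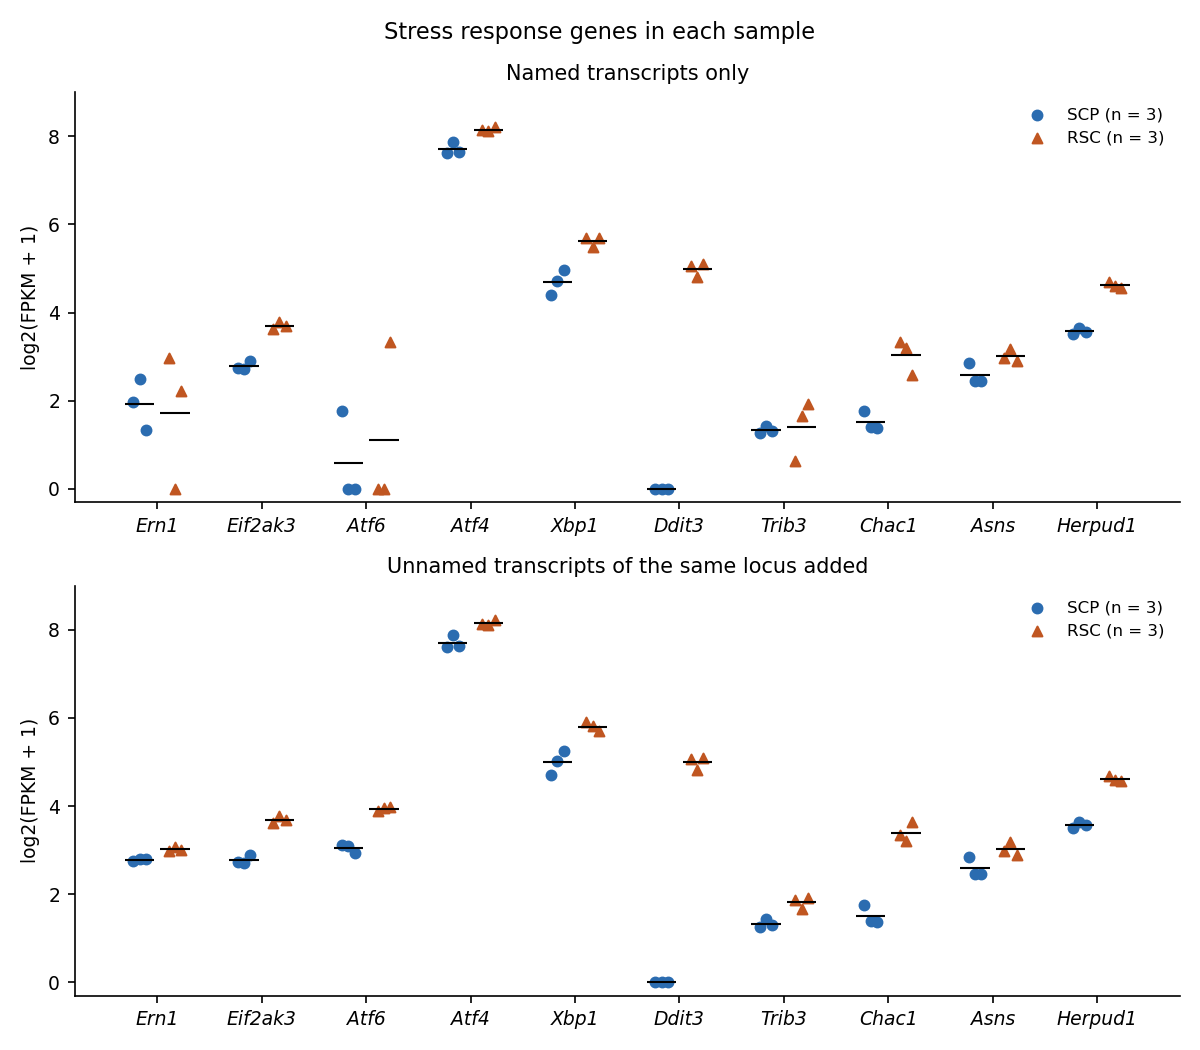
Level of each of the 10 genes as log2(FPKM + 1) in the 3 SCP (circles) and 3 RSC (triangles) preparations, with group means as bars, for named transcripts (upper panel) and with unnamed transcripts added (lower panel). In the lower panel the RSC points of all 10 genes lie above the SCP points.

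By named transcripts the groups were apart, with RSCs higher, for 7 of the 10 genes, against 24.9% of all tested genes, and 6 of 10 were called higher in RSCs against 18.1%. Ddit3, which passed the filter through its RSC values alone, is among them, and without it the counts are 6 and 5 of 9. With unnamed transcripts added, which raised the genes tested to 14020, the groups were apart for all 10 (28.8% of all tested genes) and 7 were called higher in RSCs (23.2%). None was called higher in SCPs under either count, against 22.4% and 34.1% of all tested genes. The median log2 fold change of the 10 was 0.72 (0.52 without Ddit3), and that of all tested genes was -0.17. When samples were rescaled by the median of ratios the median of all tested genes became 0.0092 and that of the 10 became 0.88, so that the distance between the medians was 0.88 before and 0.87 after. The share of all called genes that were higher in RSCs moved from 44.6% to 55.7% with that scaling, and the same number of the 10, 6, were called.

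**Figure D4:**
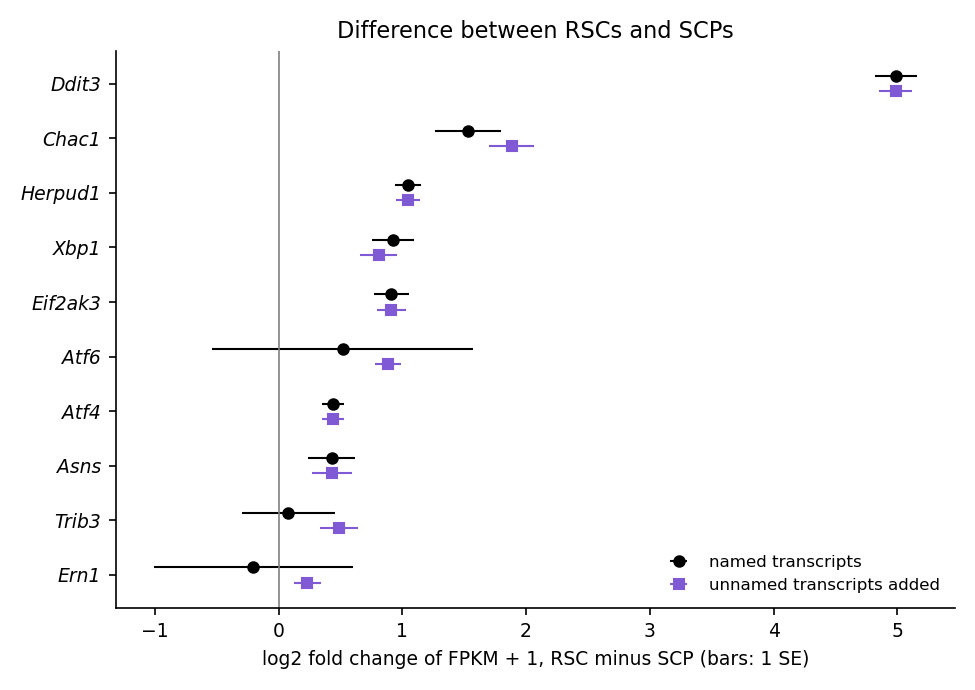
Log2 fold change of FPKM + 1 (RSC minus SCP, bars 1 SE, n = 3 per group) for each of the 10 genes, by named transcripts (circles) and with unnamed transcripts added (squares). Adding unnamed transcripts shortens the error bars of Atf6, Ern1 and Trib3, and puts all 10 squares to the right of 0.

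FPKM are scaled to transcript length, so levels can be ranked between genes. In SCPs the order by named transcripts was Atf4, Xbp1, Herpud1 and then Eif2ak3, and from Eif2ak3 down through Asns, Ern1, Chac1, Trib3 and Atf6 the ranges of neighbours overlapped. In RSCs it was Atf4, Xbp1, Ddit3, Herpud1, Eif2ak3 and Chac1, each with a range apart from the one before, and from Chac1 down through Asns, Ern1, Atf6 and Trib3 the ranges overlapped. Ddit3, listed at 0 in SCPs, thus moved furthest in the order. With unnamed transcripts added, Atf6 moved to the place after Herpud1 in both groups, above Eif2ak3, and Trib3 was the lowest gene above 0 in both.

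The rest of the pathway was followed in 9 lists of 172 other genes, of which 158 were tested. RSCs were higher for 46 and SCPs for 17, and 95 were not called. The median log2 fold change was 0.21. With unnamed transcripts added, 164 were tested and the counts were 58 and 28. Some called genes passed the filter only through the group where they were higher. The shares of called genes are to be read against those of all tested genes. These were 18.1% and 22.4% by named transcripts, and 23.2% and 34.1% with unnamed transcripts added.

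In the list of eIF2 kinases, eIF2 and eIF2B subunits and their regulators, 3 of 16 tested genes were higher in RSCs and 4 in SCPs, with a median log2 fold change of -0.32. The phosphatase subunit GADD34, which reverses eIF2 phosphorylation and is encoded by Ppp1r15a, had 226 FPKM ± 38.5 in SCPs and 502 ± 87.5 in RSCs (SD, n = 3; log2 fold change 1.15, adjusted p = 0.0029). The PERK inhibitor Dnajc3 (0.87, or 0.45 with unnamed transcripts added) and the kinase of double-stranded RNA, Eif2ak2 (0.73), were also higher in RSCs. The alpha subunit of eIF2 itself, Eif2s1, was at 53.8 FPKM ± 5.25 in SCPs and 27.0 ± 2.55 in RSCs (-0.96, adjusted p = 0.0012).

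The amino acid sensor GCN2, encoded by Eif2ak4, was lower in RSCs by named transcripts (log2 fold change -1.93, adjusted p = 0.017), but with unnamed transcripts added the difference was -0.36 and not called. Its activator GCN1, encoded by Gcn1l1, was lower in RSCs under both counts (-1.08 and -0.83). Thus the sensor of ER stress and that of double-stranded RNA were higher in RSCs, while no kinase of the list was called higher in SCPs under both counts.

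Among genes of amino acid supply, many of them known ATF4 targets, 4 of 17 tested were higher in RSCs and 3 in SCPs by named transcripts, with a median of 0.18. With unnamed transcripts added, 4 of 18 were higher in RSCs and 8 in SCPs, and the median was -0.31, so that neither the balance nor the sign of the list was stable. Of the 3 with the largest differences towards RSCs by named transcripts, 2 are amino acid transporters. Slc3a2, the shared heavy chain of several transporters, had 63.6 FPKM ± 6.57 in SCPs and 198 ± 5.67 in RSCs (log2 fold change 1.62, adjusted p = 7.6e-05). The glutamine transporter Slc1a5 had 5.82 ± 1.47 and 37.2 ± 2.08 (2.51, or 1.67 with unnamed transcripts added). Cth, which makes cysteine, was also higher (2.29, from 1.01 FPKM ± 0.298 to 8.83 ± 0.933).

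The 3 genes of the list that were lower in RSCs by named transcripts encode enzymes of serine, glycine and proline synthesis. Phgdh, the first enzyme of serine synthesis, had 89.2 FPKM ± 5.70 in SCPs and 38.2 ± 3.65 in RSCs (log2 fold change -1.20, adjusted p = 0.00034). Shmt2, which makes glycine from serine in mitochondria (-1.03, or -0.71 with unnamed transcripts added), and Aldh18a1, which starts proline synthesis (-0.38), were lower as well. With unnamed transcripts added, the enzymes Psat1, Pycr1 and Gpt2 and the transporters Slc38a2 and Slc6a9 were also called lower in RSCs. Of 13 tested genes in the list of cytosolic tRNA synthetases and the tRNA exporter Xpot, Nars was higher in RSCs (0.33), Iars (-0.71, or -1.08 with unnamed transcripts added) and Mars (-0.64) were lower, and 10 were not called.

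The list of stress regulators and cell death genes had the highest median of the 9, 0.77, with 8 of 17 tested genes higher in RSCs and 1 in SCPs (10 and 3 of 19 with unnamed transcripts added). Of the 8, Nupr1, Gdf15, Casp12 and Pmaip1 had SCP means of 0.405, 0.484, 0.523 and 0.934 FPKM. They passed the filter only through their RSC values, which fixed their direction. Atf3, a factor induced by stress and injury, had 5.93 FPKM ± 1.11 in SCPs and 427 ± 29.6 in RSCs (log2 fold change 5.96, adjusted p = 7.4e-06). Nupr1, a small stress-induced nuclear protein, had 0, 0 and 1.21 FPKM in SCPs and 233, 280 and 261 in RSCs (7.63). The stress cytokine Gdf15 (3.63) and Cebpb (3.05), whose product pairs with ATF4 and CHOP, were also higher. Where SCP values are near 0, as for Nupr1, the size of the log2 fold change depends on the 1 added to each FPKM. Ddit4, an inhibitor of mTORC1 signalling, was lower in RSCs (-0.47).

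In the list of ATF6 relatives and the proteases that cleave ATF6, 5 genes were tested. Creb3l1, also cleaved on leaving the ER and known in collagen-secreting cells, was higher in RSCs (log2 fold change 2.32) and Crebzf was lower (-1.71). With unnamed transcripts added these were 1.88 and -1.39. Atf6b had 26.6, 30.8 and 29.0 FPKM in SCPs and 26.7, 27.1 and 0 in RSCs, and was not called (-1.70, adjusted p = 0.34). Of 9 tested genes of the IRE1 arm, 4 were higher in RSCs, among them Bloc1s1, a message that IRE1 is known to degrade (1.05), the IRE1 inhibitor Tmbim6 (0.91) and the chaperone Dnajb9 (0.62). Rtcb, the ligase that joins the cut Xbp1 message, was lower, at 60.2 FPKM ± 7.14 in SCPs and 31.4 ± 6.19 in RSCs (-0.93, adjusted p = 0.0063).

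Of 26 ER chaperones and folding enzymes, 13 were higher in RSCs and 1 in SCPs, with a median log2 fold change of 0.51. Hspa5, the main ER chaperone BiP, had 254, 309 and 297 FPKM in SCPs and 441, 398 and 411 in RSCs, with no overlap (0.54, adjusted p = 0.0048). Fkbp14, a prolyl isomerase of the ER (1.67), Sil1, the exchange factor of BiP (1.52), and Pdia5, a disulfide isomerase (1.28, or 0.98 with unnamed transcripts added), were the ones with the largest differences by named transcripts. The abundant chaperones did not move together. Hsp90b1 was at 343 FPKM ± 32.9 in SCPs and 296 ± 11.5 in RSCs and was not called (-0.21, adjusted p = 0.10), and Hyou1 was lower in RSCs (-0.43).

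Of 24 tested genes of ER-associated degradation 6 were higher in RSCs and 2 in SCPs by named transcripts, and 12 and 3 with unnamed transcripts added. The lectin Os9 (log2 fold change 1.75) and the mannosidase-like Edem1 (1.48) and Edem2 (1.20, or 0.94 with unnamed transcripts added), which pick glycoproteins for degradation, were higher. Vcp, the ATPase that pulls proteins out of the membrane (-0.55), and the ubiquitin ligase Stub1 (-0.47) were lower. Of 31 tested genes of ER translocation and export, 6 were higher in RSCs, among them the coat protein Sec24d (1.00), the signal peptidase subunit Spcs1 (0.86) and the coat GTPase Sar1a (0.80). Sec61g was lower (-0.38). Srprb was listed at 0 in RSCs (-3.71), but with unnamed transcripts added it had 25.6 to 31.1 FPKM in SCPs and 33.1 to 37.1 in RSCs, was not called and had a difference of 0.31.

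**Figure D5:**
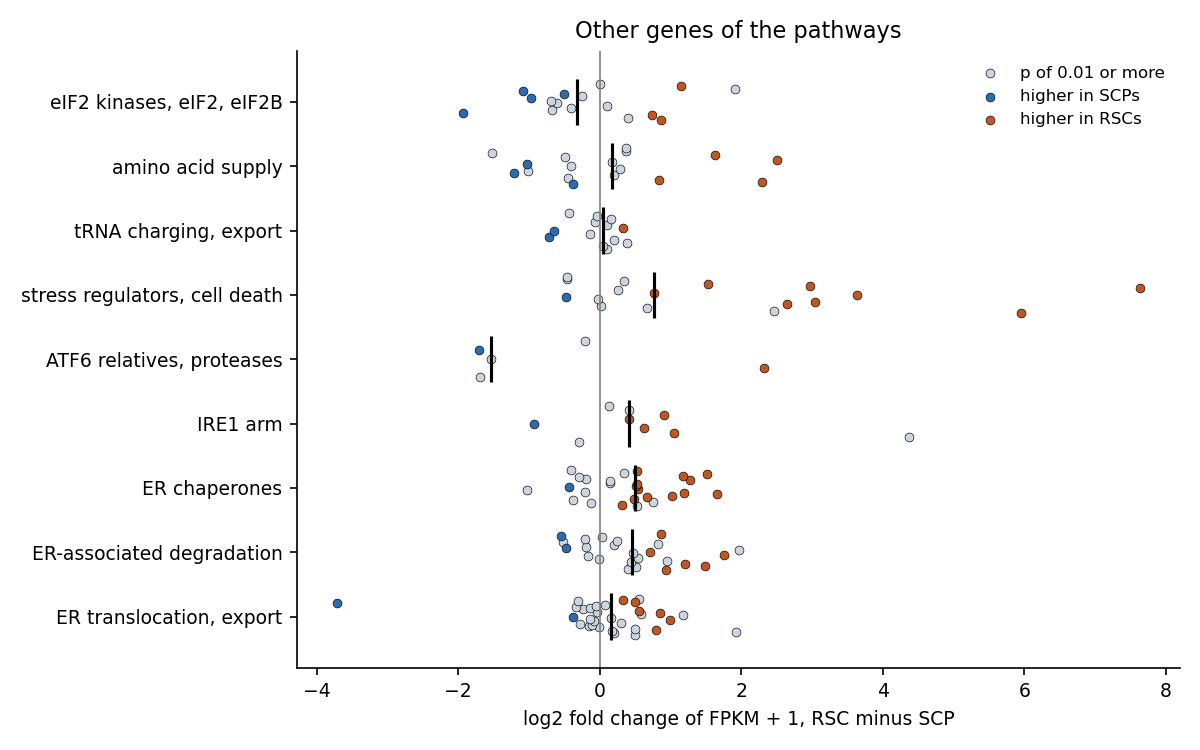
Log2 fold change of FPKM + 1 (RSC minus SCP) of each tested gene in the 9 lists, by named transcripts, coloured by call at p under 0.01, with the list median as a black bar. Called points to the right of 0 outnumber those to the left, except among eIF2 and eIF2B genes, tRNA charging genes and ATF6 relatives.

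Other cells and handling differed between the groups as well. In bulk RNA, fewer cells of a type and less RNA per cell cannot be told apart. The Schwann lineage gene Sox10 was at 175 to 181 FPKM in SCPs and 143 to 149 in RSCs, and the later marker S100b at 3.21 to 19.3 and 782 to 924. Summed FPKM of 16 leukocyte markers was 25.9 to 68.1 in SCPs and 3467 to 3983 in RSCs, and all 15 that were tested were higher in RSCs, while Cybb was listed at 0 in all RSCs by named transcripts. All 16, Cybb included, were higher in RSCs once unnamed transcripts were added. Summed FPKM of 8 fibroblast markers was 644 to 1021 and 5392 to 8049, with 7 higher in RSCs. Summed FPKM of 15 genes known to respond to tissue dissociation was 1194 to 1382 and 5768 to 6845, with 13 higher in RSCs. Conversely, 7 erythroid genes summed to 26099 to 116051 in SCPs and 1358 to 1848 in RSCs. For 6 muscle genes the sums were 55.5 to 216 and 27.6 to 31.1, with 4 higher in SCPs and 1 in RSCs. For 6 neuron genes they were 28.8 to 51.6 and 18.5 to 24.3, with 2 of 5 tested higher in SCPs. Markers of leukocytes, fibroblasts and dissociation were thus higher in the same group as the stress genes that were called, and their part in the differences was not tested.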

How the data were processed

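The authors prepared stranded mRNA libraries, sequenced them with paired-end reads and mapped these to the rat genome rn6. The submitters' processing notes name FastQC 0.11.2, TopHat2 2.1.0 and Cufflinks 2.2.1. The deposited files are 1 Cufflinks table per sample, in which the authors give the FPKM of every transcript, with an interval for each value and the read coverage, a signal from which relative depth was taken (0.88 to 1.00 of the highest sample in SCPs, 0.79 to 0.84 in RSCs). The tables hold no counts, so depth is unknown. Each holds 8815 to 12417 unnamed transcripts. FPKM of named transcripts were summed by symbol, and 77 transcripts per table whose names had become dates were left out.

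The groups were tested two-sided on log2(FPKM + 1) with limma 3.58.1 (R 4.3.3) and a variance trend, fitted to 13003 genes. A call was an unadjusted p under 0.01, as in the study, whose further cut on fold change was not applied. Adjustment of p-values followed Benjamini and Hochberg across all genes tested. The p-values measure the spread between preparations, which may be technical. The script was tested on simulated data. Tables and exact permutation tests used pandas 2.3.3 and scipy 1.17.1. Motifs were searched in RefSeq promoters of GRCr8, and gene positions are those of rn6 in the tables and span all transcripts of a symbol.

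The members and lists were chosen with earlier results of these data known, and the lists were written from general knowledge. Named are the 10 members, the 3 genes of each list with the largest difference in each direction among those called, a set of central regulators (Hspa5, Ppp1r15a, Atf3, Cebpb, Hsp90b1, Dnajc3, Eif2s1, Eif2ak2, Eif2ak4 and Atf6b) and the 3 genes most alike to Atf4. Bax, Cybb, Sox10, S100b, Xpot, Psat1, Pycr1, Gpt2, Slc38a2, Slc6a9, Casp12 and Pmaip1 were named after their values were seen. A gene of the marker lists is not reported here. The alternatives were another pseudocount, other filters, 2 other scalings, no variance trend, adjusted p, a replicate block, leaving out each sample, the highest transcript in place of the sum, unnamed transcripts added, and values of 0 taken as missing.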

Additional observations from a re-analysis of the deposited data

How the results depend on the processing

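Of the 10 genes, 5 to 7 were called higher in RSCs and 0 higher in SCPs under every alternative run, and their median log2 fold change lay between 0.57 and 0.93 (0.69 to 0.93 with a sample left out). Of all tested genes, 18.1% and 22.4% were called by named transcripts. The share of all called genes that were higher in RSCs ran from 40.4% (unnamed transcripts added) to 55.7% (median-of-ratios scaling). Leaving out genes under a mean of 5 FPKM left 6 of the 10. Eif2ak3, Xbp1, Ddit3, Chac1 and Herpud1 kept their calls in every alternative that tested them. Atf4 lost its call with no variance trend (adjusted p = 0.0367), with quantile normalization (log2 fold change 0.29, adjusted p = 0.0416), with the replicate block and without any of 3 samples.

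Genes with low or uneven values changed direction. Ern1 was at 0.23 with unnamed transcripts added, at 0.66 with values of 0 taken as missing, at -1.05 with a pseudocount of 0.1, and ranged from -0.82 to 0.66 with a sample left out, with 0.081 without SCP preparation 2 and 0.66 without RSC preparation 2. Atf6 ranged from -0.59, without RSC preparation 3, to 1.11 with a sample left out, and was at 2.73 with values of 0 taken as missing. Trib3 was at -0.070 with quantile normalization and ranged from -0.18, without RSC preparation 3, to 0.46, with -0.050 without RSC preparation 2.

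The count of other pathway genes higher in RSCs lay between 36 and 59. That of genes higher in SCPs, 17, was 8 by adjusted p, 7 with median-of-ratios scaling, 11 with no variance trend and 28 with unnamed transcripts added, and was 9 (without SCP preparation 2) to 14 with a sample left out, with 11 without RSC preparation 3. The cause of these changes was not tested.

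Deviations from the group means had correlations of 0.044, -0.0049 and 0.026 between samples with the same replicate number. Between samples with different numbers they ran from -0.048 to 0.022. Values this small, from 3 preparations per group, cannot decide whether the numbers pair the samples. With the replicate block, 5 of the 10 genes were called higher in RSCs, Atf4 having an adjusted p of 0.0338, and 10 other pathway genes were higher in SCPs. With 3 preparations per group and no counts, small differences of low genes such as Ern1, Trib3 and Asns could not be resolved here.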
